A study of Mus musculus with 34 samples.

Results

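The drug-metabolizing cytochrome P450s of families 1 to 3 were followed through 34 liver transcriptomes of mice fed chow or a high-fat diet (HFD). Members were taken by gene symbol alone: a symbol of family Cyp1, Cyp2 or Cyp3 with a subfamily letter and a number, other than Cyp2b, present in both count tables. This gave 39 genes of 13377 measured in both tables and 14876 measured in either. They comprised 13 Cyp2c, 8 Cyp2d, 4 Cyp2a, 4 Cyp3a, 3 Cyp2j and 2 Cyp1a genes, and 1 each of Cyp1b, Cyp2e, Cyp2f, Cyp2r and Cyp2u. All libraries were made from whole liver of male mice, which received chow with 10% or HFD with 60% of calories from fat from 8 weeks of age. The first experiment held Bcl2AdTG mice, in which Adipoq-Cre switches on a Bcl2 transgene in adipocytes, and their wild-type (WT) littermates, with 3 chow-fed and 5 HFD-fed livers of each genotype. The second held S100a8fl/flCx3cr1Cre mice, in which a Cre driven by Cx3cr1 deletes the floxed S100a8 alleles in macrophages and leaves neutrophils their S100a8, and S100a8fl/fl littermates, in which S100a8 is floxed but not deleted. It comprised 4 chow-fed and 5 HFD-fed S100a8fl/fl livers, and 5 chow-fed and 4 HFD-fed S100a8fl/flCx3cr1Cre livers. Labels of the count columns put feeding in the first experiment at 3 months on either diet. How long the mice of the second experiment were fed is not settled by the sources used here. Bcl2 protects adipocytes from apoptosis and S100A8 is an inflammatory protein of myeloid cells.

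Cytochrome P450s are heme enzymes of the endoplasmic reticulum that take electrons from P450 oxidoreductase (Por) and insert oxygen into their substrates. Families 1 to 3 carry out most oxidative drug metabolism in hepatocytes and also handle steroids, bile acids, retinoids and arachidonic acid. The aryl hydrocarbon receptor (AHR) drives Cyp1 genes, the nuclear receptors CAR and PXR drive Cyp2b, Cyp2c and Cyp3a genes, and pituitary growth hormone sets a sex-dependent level for many of the mouse Cyp2 genes.

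Libraries of the first experiment held 19639839 to 52395073 gene-assigned read counts (median 27885752), and those of the second 18628257 to 25462106 (median 21841936). Levels are given in CPM, the counts after TMM scaling for library size, in order of mouse number within a group. Bulk RNA cannot tell fewer cells of a type from less RNA per cell, and the labels say of replicates only that they carry different mouse numbers. The transgene could not be checked in liver: Bcl2 was at 7.75 to 11.3 CPM in chow-fed WT, 4.17 to 8.44 in chow-fed Bcl2AdTG and 8.98 to 14.9 CPM in HFD-fed Bcl2AdTG livers, and at 2.72 to 2.94 CPM in HFD-fed WT livers other than mouse 1, which had 21.3 CPM. S100a8 was not among the genes with counts in the second experiment, so the deletion that defines its genotypes could not be checked in these data. The family is a hepatocyte one, and hepatocyte marker genes were present in every library. Of 8 measured hepatocyte markers, 3 were lower with HFD in WT and 4 in S100a8fl/fl livers, and their sum ranged from 72036 to 104685 CPM in HFD-fed WT against 92717 to 118374 CPM in chow-fed WT livers. Of 5 stellate cell and fibroblast markers, 2 were higher with HFD in WT and 5 in S100a8fl/fl livers, with sums of 389.5 to 507 CPM on HFD and 186 to 294 CPM on chow in WT. No measured marker of either list was at 0 throughout a group. Over all genes, 6.98% were called lower and 8.4% higher with HFD in WT livers, by the test described below. In S100a8fl/fl livers these shares were 13% and 14.5%. The part of cell composition in the P450 values was not tested.

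Between 1.44% and 2.59% of a library's counts came from the 39 genes. In WT livers the summed level was 20376 ± 1708 CPM (SD, n = 3) on chow and 15505 ± 1590 CPM (SD, n = 5) on HFD. S100a8fl/fl livers had 24967 ± 2455 CPM (SD, n = 4) on chow against 15834 ± 1612 CPM (SD, n = 5) on HFD. S100a8fl/flCx3cr1Cre livers held 25591 ± 1869 CPM (SD, n = 5) on chow and 16995 ± 1561 CPM (SD, n = 4) on HFD. Bcl2AdTG livers had 21947 ± 875 CPM (SD, n = 3) on chow and 19720 ± 1311 CPM (SD, n = 5) on HFD. Per kilobase of exon Cyp2e1 was highest, with a mean of 2570 CPM per kb in chow-fed WT and 4131 CPM per kb in chow-fed S100a8fl/fl livers. Cyp2d9 came next at 566 and 802 CPM per kb.

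Subfamilies differed in how their summed level moved. Cyp2c summed to 4156 ± 574 CPM (SD, n = 3) on chow and 1922 ± 401 CPM (SD, n = 5) on HFD in WT, and to 3775 ± 639 CPM (SD, n = 4) on chow and 1479 ± 309 CPM (SD, n = 5) on HFD in S100a8fl/fl livers. Cyp1a had 684 ± 196 CPM (SD, n = 3) on chow against 213 ± 49 CPM (SD, n = 5) on HFD in WT, whereas Bcl2AdTG livers on HFD had 460 ± 58 CPM (SD, n = 5). Cyp3a was at 3625 ± 797 CPM (SD, n = 3) on chow and 2035 ± 392 CPM (SD, n = 5) on HFD in WT, and lowest in HFD-fed Bcl2AdTG livers, at 1469 ± 348 CPM (SD, n = 5). Cyp2j stayed between group means of 533 and 775 CPM in all 8 groups. These sums describe the levels and were not tested.

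**Figure D1:**
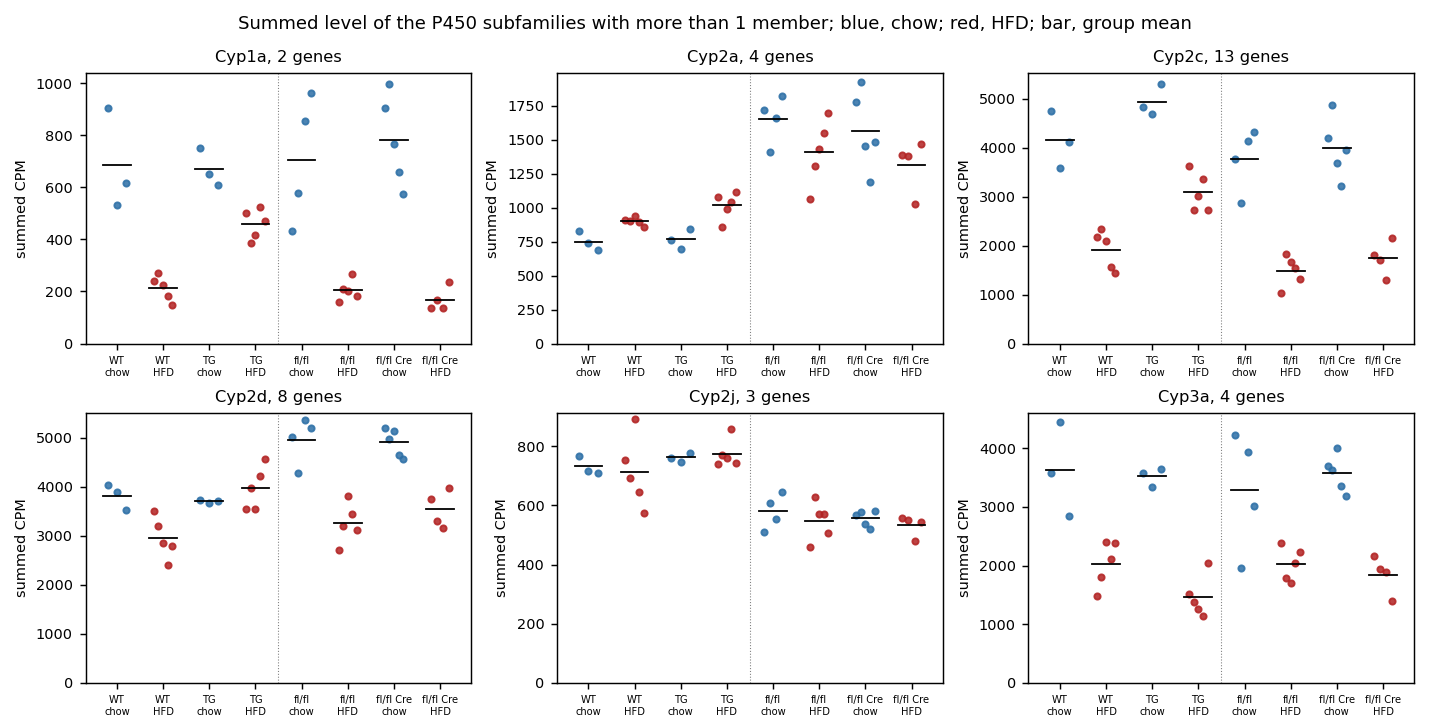
Summed level of 6 subfamilies (CPM, linear axis from 0) in each library, by group; points are livers, bars are group means, blue is chow and red is HFD, TG is Bcl2AdTG, fl/fl is S100a8fl/fl and fl/fl Cre is S100a8fl/flCx3cr1Cre, and the dotted line parts the experiments. Cyp2c and Cyp1a lie lower on HFD in WT, S100a8fl/fl and S100a8fl/flCx3cr1Cre livers, and Cyp2j differs little between diets.

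How HFD changed the family in mice without an altered gene product was asked first, in WT and, as a separate cohort, S100a8fl/fl livers. In WT livers 5 members rose and 19 fell of 39, against 15.4% of all 14436 genes called in either direction (8.4% higher and 6.98% lower). In S100a8fl/fl livers 5 rose and 18 fell, against 27.5% of 13817 genes (14.5% higher and 13% lower). A gene was called at an edgeR quasi-likelihood p under 0.05 after Benjamini-Hochberg adjustment over all genes tested; each fold change below is on the log2 scale, with its standard error. The median log2 fold change of the members was -0.48 in WT and -0.52 in S100a8fl/fl livers, beside -0.02 and -0.01 over all genes. Of 13 Cyp2c genes, 10 fell and 2 rose in WT and 9 fell and 2 rose in S100a8fl/fl livers; of 4 Cyp2a genes, 3 and 2 rose and 0 fell; of 4 Cyp3a genes 3 and 2 fell, and of 8 Cyp2d genes 2 and 3 fell. Levels did not overlap between the diet groups for 21 members in WT and 19 in S100a8fl/fl livers, beside 19.9% and 20.3% of all genes. Leaving out any single liver left 16 to 23 calls in WT, with the lowest count, 16, without chow-fed mouse 1, and 20 to 27 in S100a8fl/fl livers. Clock genes also differed between the diet groups of WT livers, with Dbp at 5.20 and Bmal1 at -1.69 on the log2 scale. In Bcl2AdTG livers these were at 3.39 and -1.44, and in S100a8fl/fl livers at 0.04 and -0.18. The part of clock genes in the P450 changes was not tested.

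Both cohorts called 20 of the members, which is 83.3% of the WT calls and 87% of the S100a8fl/fl calls, and all 20 had the same direction, 4 higher and 16 lower. Over all genes, 1326 were called in both, which is 62.3% of the WT calls and 35.5% of the S100a8fl/fl calls. Cyp2a5, Cyp2c55, Cyp2j9 and Cyp3a25 were called in WT alone, and Cyp1b1, Cyp2d13 and Cyp2e1 in S100a8fl/fl alone. When the 2 diet responses were set against each other in one model, 1 member differed, Cyp2a5, against 0.942% of all genes called (0.583% upward and 0.359% downward in S100a8fl/fl relative to WT livers); 9 members had an unadjusted p under 0.05. Without chow-fed WT mouse 3 that adjusted p was 0.0643, which left 0 calls. The cohorts were separate experiments, so that genotype, time and handling cannot be told apart in this comparison.

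**Figure D2:**
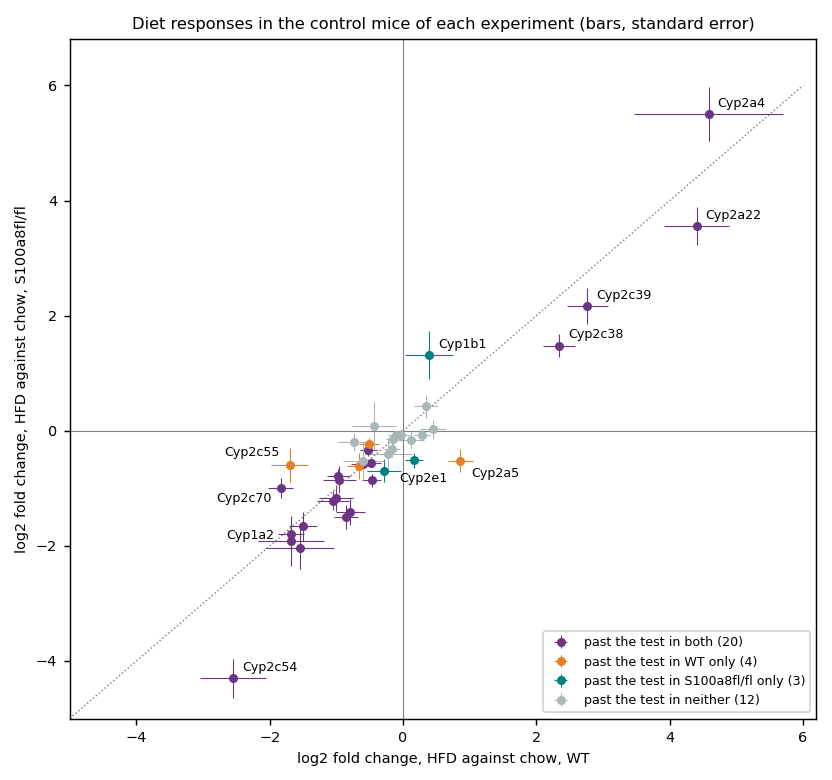
Diet response (log2 fold change, HFD against chow) of each of 39 members in WT (horizontal axis) and S100a8fl/fl livers (vertical axis), with bars of 1 SE and a dotted line where both are equal; colour shows whether a member was called in both, 1 or neither. Of the members 20 were called in both cohorts, 4 in WT only, 3 in S100a8fl/fl only and 12 in neither.

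Whether the Bcl2 transgene of adipocytes altered the liver P450s was asked on each diet. On HFD, 12 members were higher and 5 lower in Bcl2AdTG than in WT livers, against 6.71% of all genes called (2.42% higher and 4.29% lower), and the members' median log2 difference was 0.34 beside 0.01 over all genes. The 12 comprised 6 Cyp2c genes (Cyp2c23, Cyp2c37, Cyp2c50, Cyp2c54, Cyp2c67 and Cyp2c70), Cyp2d10, Cyp2d13, Cyp1a2, Cyp2e1, Cyp2j9 and Cyp2u1. The 5 lower were Cyp1b1, Cyp2a22, Cyp2c39, Cyp3a11 and Cyp3a59. Levels did not overlap between the genotypes for 9 members, beside 7.29% of all genes. This comparison shares its HFD-fed WT livers with the diet comparison in WT. The count rested on single livers: it was 7 without HFD-fed WT mouse 4, 9 without WT mouse 5, 11 without WT mouse 3, 11 without Bcl2AdTG mouse 3, 9 without Bcl2AdTG mouse 5 and 15 without WT mouse 1, the liver with the high Bcl2. It was 10 when the HFD-fed livers alone were fitted. Markers of other cells moved in the same livers: 2 of 5 stellate cell and fibroblast and 3 of 5 markers of macrophages other than Kupffer cells were lower in Bcl2AdTG livers, the sum of the macrophage list being 35.4 to 47.0 CPM against 55.8 to 172 CPM in WT livers, with none at 0, while 0 of 5 Kupffer cell markers were called (0 at an unadjusted p under 0.05). Among clock genes Tef was called, higher in Bcl2AdTG livers (log2 fold change 0.635, SE 0.18, adjusted p = 0.0441). The part of these markers and of clock genes in the P450 differences was not tested.

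In Bcl2AdTG livers HFD raised 2 members (Cyp2a5 and Cyp2a22) and lowered 5 (Cyp2c29, Cyp2c55, Cyp2c70, Cyp2f2 and Cyp3a11), against 2.58% of all genes called (1.32% higher and 1.26% lower), with a median log2 fold change of -0.12 beside 0.03. Diet groups did not overlap for 19 members, beside 15.8% of all genes. This count was 15 with limma-voom and 10 with DESeq2, and 3 without chow-fed Bcl2AdTG mouse 1, or mouse 2. On chow, 0 members were called between Bcl2AdTG and WT livers by edgeR, against 0.152% of all genes (0.104% higher and 0.0485% lower); 10 members did not overlap between the genotypes, beside 13.4% of all genes, 4 had an unadjusted p under 0.05, and DESeq2 and limma-voom called 1 each, Cyp2c38. The diet response differed between the genotypes for 2 members, Cyp2c38 and Cyp2c39, against 0.485% of all genes (0.229% upward and 0.256% downward in Bcl2AdTG relative to WT livers), with 13 at an unadjusted p under 0.05; DESeq2 called 6 and limma-voom 9. On chow, WT mouse 1 or 2 or Bcl2AdTG mouse 2 or 3, when left out, gave a count of 0, and WT mouse 3 a count of 1. On HFD, leaving out WT mouse 3 or 4 or Bcl2AdTG mouse 1 or 5 gave a count of 1, leaving out WT mouse 1 or Bcl2AdTG mouse 6 a count of 3, and leaving out WT mouse 2 a count of 4. For the other members a difference in diet response between these genotypes was not shown.

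Deleting S100a8 in Cx3cr1-expressing cells was compared with the floxed control on each diet. HFD raised 5 and lowered 20 members in S100a8fl/flCx3cr1Cre livers, against 28.9% of all genes called (16.1% higher and 12.8% lower), with 22 members whose diet groups did not overlap, beside 25.1% of all genes, and with a median log2 fold change of -0.405 beside -0.01 over all genes, and 18 members were called in WT, S100a8fl/fl and S100a8fl/flCx3cr1Cre livers alike. Between the genotypes on HFD, 1 member was called, Cyp1b1, against 0.883% of all genes (0.854% higher and 0.0289% lower), and 3 did not overlap between the genotypes, beside 4.44% of all genes, with 7 at an unadjusted p under 0.05. On chow 0 members were called, against 0% of all genes; 0 did not overlap, beside 1.16% of all genes, 3 had an unadjusted p under 0.05, and DESeq2 and limma-voom called 0. The diet response differed between these genotypes for 0 members, against 0.13% of all genes (0.13% higher and 0% lower), with 5 at an unadjusted p under 0.05 and 0 called by DESeq2 or limma-voom.

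**Figure D3:**
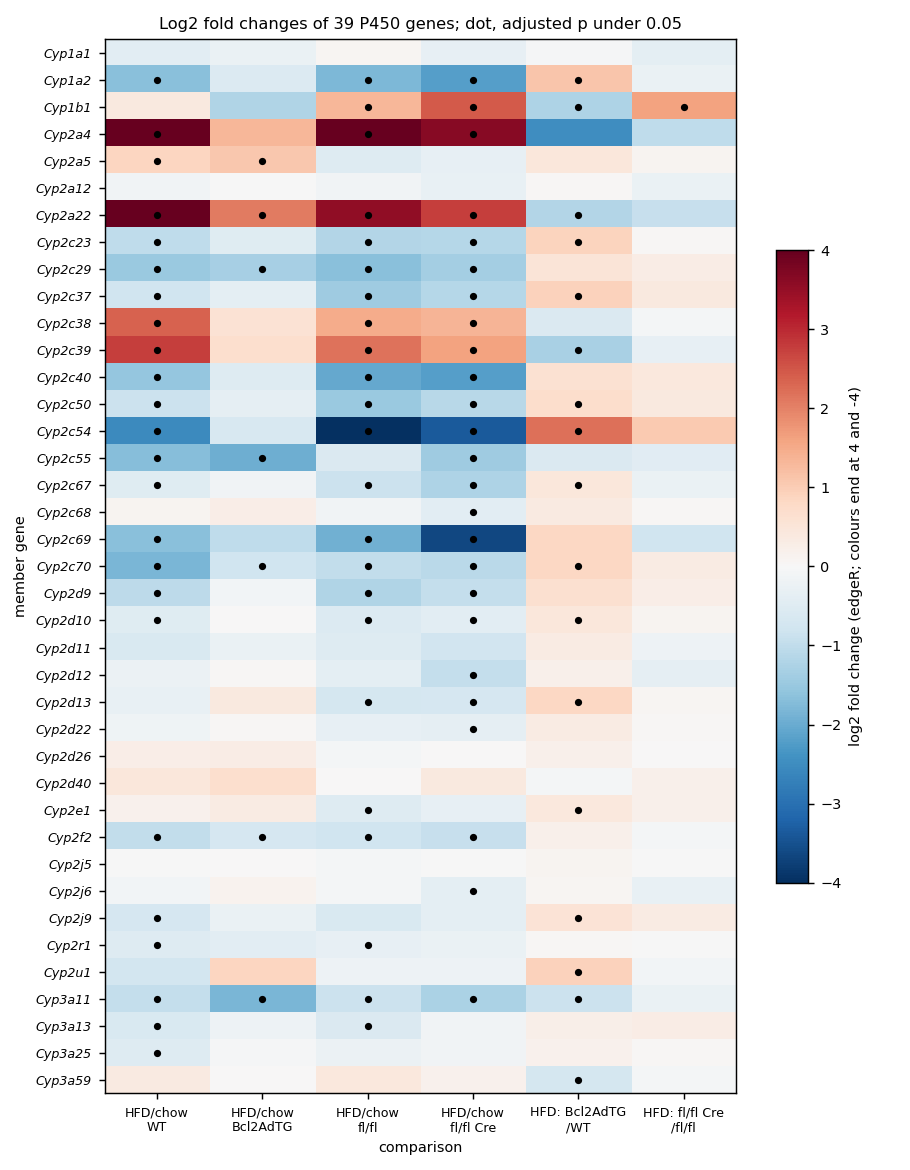
Log2 fold change of each of 39 members (rows, by subfamily) in 6 comparisons (columns); red is higher and blue is lower in the first-named group, colours end at 4 on either side, and a dot marks an adjusted p under 0.05. The diet columns of WT, S100a8fl/fl and S100a8fl/flCx3cr1Cre hold 24, 23 and 25 dots, that of Bcl2AdTG 7, the Bcl2AdTG genotype column 17 and the S100a8 genotype column 1.

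Cyp1a2, which metabolizes arylamines and caffeine and is driven by AHR (ENSMUSG00000032310, chr9.0:57676937.0-57683703.0, minus strand of GRCm38), showed one of the plainest patterns. Its level was 903, 529.6 and 616 CPM in chow-fed WT, 239, 270.2, 226, 179 and 148 in HFD-fed WT, 748, 651 and 606 in chow-fed Bcl2AdTG and 502, 383, 417, 523 and 470.1 CPM in HFD-fed Bcl2AdTG livers. Every HFD-fed WT liver lay below every other liver of that experiment, and the HFD-fed Bcl2AdTG livers lay between these and the chow-fed ones. Cyp1a2 fell with HFD in WT (log2 fold change -1.68, SE 0.19, adjusted p = 5.40e-05) and was higher in Bcl2AdTG than in WT livers on HFD (log2 fold change 1.11, SE 0.17, adjusted p = 0.00178), while the difference between the diet responses did not pass (log2 fold change 1.14, SE 0.28, adjusted p = 0.081) but passed with DESeq2 (0.0066), limma-voom (0.00645) and without HFD-fed WT mouse 2 (0.0406). In the second experiment it was at 431, 578, 852 and 961 CPM in chow-fed S100a8fl/fl, 159, 208, 201, 265 and 183 in HFD-fed S100a8fl/fl, 903, 994, 766, 658 and 574 in chow-fed S100a8fl/flCx3cr1Cre and 137, 167, 135 and 235 CPM in HFD-fed S100a8fl/flCx3cr1Cre livers. Chow-fed and HFD-fed livers did not overlap in either genotype, and the fall with HFD was 3.47-fold in S100a8fl/fl (log2 fold change -1.79, SE 0.22, adjusted p = 1.37e-05) and 4.63-fold in S100a8fl/flCx3cr1Cre livers (log2 fold change -2.21, SE 0.24, adjusted p = 2.07e-06). Cyp1a1, the AHR-inducible enzyme with little expression in resting liver, was called in none of the comparisons.

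Cyp1b1, which oxidizes estrogens and polycyclic hydrocarbons and is found mainly outside hepatocytes (ENSMUSG00000024087, chr17.0:79701537.0-79715061.0, minus strand), was the lowest member per kilobase of exon in chow-fed WT and S100a8fl/fl livers. It stood at 0.617, 0.987 and 1.16 CPM in chow-fed WT, 0.99, 0.599, 1.42, 1.41 and 1.58 in HFD-fed WT, 1.09, 0.978 and 1.42 in chow-fed Bcl2AdTG and 0.612, 0.617, 0.571, 0.231 and 0.414 CPM in HFD-fed Bcl2AdTG livers. On HFD the Bcl2AdTG livers lay below all WT livers other than mouse 2, which fell inside their range. Cyp1b1 was lower in Bcl2AdTG than in WT livers on HFD (log2 fold change -1.25, SE 0.31, adjusted p = 0.0249), a call lost without WT mouse 3, 4 or 5 or Bcl2AdTG mouse 5 or 6 (adjusted p = 0.0507 to 0.0719) and when only the compared groups were fitted (0.0511). Over 17 alternatives Cyp1b1 kept this call in 10, with adjusted p up to 0.163. Stellate cell and fibroblast markers moved with it: 2 of 5 were lower in the same comparison, their sum being 193 to 287 CPM in Bcl2AdTG and 389.5 to 507 CPM in WT livers on HFD; their part in the result was not tested.

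S100a8fl/fl and S100a8fl/flCx3cr1Cre livers gave a different picture for Cyp1b1, with 0.589, 0.444, 0.293 and 0.375 CPM in chow-fed S100a8fl/fl, 1.86, 0.369, 1.12, 0.945 and 1 in HFD-fed S100a8fl/fl, 0.779, 0.633, 0.512, 0.779 and 0.217 in chow-fed S100a8fl/flCx3cr1Cre and 3.96, 3.3, 3.83 and 2.01 CPM in HFD-fed S100a8fl/flCx3cr1Cre livers. All HFD-fed S100a8fl/flCx3cr1Cre livers were above all HFD-fed S100a8fl/fl livers and all chow-fed livers. Cyp1b1 rose with HFD in S100a8fl/flCx3cr1Cre (log2 fold change 2.47, SE 0.38, adjusted p = 8.71e-05) and in S100a8fl/fl livers (log2 fold change 1.31, SE 0.42, adjusted p = 0.0263), the second a call lost without chow-fed mouse 4 or 5 or HFD-fed mouse 1 (adjusted p = 0.058 to 0.0844), with limma-voom (0.094) and when only the compared groups were fitted (0.0536). Between the genotypes on HFD it was higher in S100a8fl/flCx3cr1Cre livers (log2 fold change 1.62, SE 0.35, adjusted p = 0.0272), and this was lost without HFD-fed S100a8fl/fl mouse 2, 3, 4 or 5 or S100a8fl/flCx3cr1Cre mouse 1, 3 or 4 (adjusted p = 0.0572 to 0.11). All 5 stellate cell and fibroblast markers rose with HFD in both genotypes, and 0 of the 5 were called between them on HFD (0 at an unadjusted p under 0.05). In the HFD-fed livers 3 of 4 smooth muscle markers were higher, their sum being 149.9 to 176 CPM in S100a8fl/flCx3cr1Cre against 13.2 to 41.3 CPM in S100a8fl/fl livers, and 2 of 3 adipocyte markers were higher, at 70.2 to 149 against 7.39 to 29.8 CPM. No measured marker of these lists was at 0 throughout a group, and listed markers that were not measured are left out of these counts. The part of such cells in the Cyp1b1 result was not tested.

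Of the 5 members that rose with HFD in WT livers 3 were Cyp2a genes. Cyp2a4, a testosterone hydroxylase that female mouse liver expresses more than male liver (ENSMUSG00000074254, chr7.0:26307169.0-26315088.0, plus strand), and Cyp2a5, the coumarin hydroxylase (ENSMUSG00000005547, chr7.0:26835305.0-26843548.0, plus strand), are close copies that both rose with HFD in WT livers, whereas in S100a8fl/fl livers Cyp2a4 alone was called; their promoters are shown for this reason. The windows run from 250 bases before to 50 bases after the start in RefSeq (GRCm38.p6), on the plus strand, at chr7:26306942-26307241 and chr7:26835089-26835388. Capitals mark the bases that mismatch between the copies:
Cyp2a4: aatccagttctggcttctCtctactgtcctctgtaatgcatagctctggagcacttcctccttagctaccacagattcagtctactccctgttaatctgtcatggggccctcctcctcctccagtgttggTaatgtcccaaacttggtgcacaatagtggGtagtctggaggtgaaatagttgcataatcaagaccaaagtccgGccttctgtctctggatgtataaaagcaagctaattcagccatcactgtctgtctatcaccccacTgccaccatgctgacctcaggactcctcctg
Cyp2a5: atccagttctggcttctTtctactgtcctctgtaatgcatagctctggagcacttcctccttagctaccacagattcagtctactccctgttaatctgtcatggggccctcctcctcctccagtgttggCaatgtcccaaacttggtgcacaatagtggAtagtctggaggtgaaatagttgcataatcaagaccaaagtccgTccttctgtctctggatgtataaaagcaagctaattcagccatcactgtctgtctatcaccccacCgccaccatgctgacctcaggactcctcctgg
Over the aligned columns 294 of 301 were identical (97.7%), with 5 mismatches and the rest gaps. The transcripts are alike as well: 38.0% of the 50-base windows of Cyp2a4 occur in another gene, 36.1% in Cyp2a5, so that reads could be assigned to the wrong copy and the lower of these levels is uncertain.

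Cyp2a4 was nearly silent on chow, with 0.206, 0.493 and 0.484 CPM in chow-fed WT, 3.46, 0.799, 3.51, 26.9 and 12.4 in HFD-fed WT, 0.234, 0.253 and 1.68 in chow-fed Bcl2AdTG and 1.33, 0.72, 1.33, 0.833 and 4.41 CPM in HFD-fed Bcl2AdTG livers. HFD-fed WT livers all exceeded the chow-fed ones, but ranged widely, with mice 4 and 5 highest. The rise passed in WT (log2 fold change 4.58, SE 1.12, adjusted p = 0.0111) and neither the Bcl2AdTG diet response (log2 fold change 1.31, SE 1.02, adjusted p = 0.595) nor the genotype difference on HFD (log2 fold change -2.47, SE 0.76, adjusted p = 0.0619; 0.0362 with DESeq2, 0.0198 without WT mouse 2 and 0.0315 without Bcl2AdTG mouse 6) did. In the second experiment Cyp2a4 reached 2.21, 0.998, 1.37 and 1.97 CPM in chow-fed S100a8fl/fl, 71.1, 30.8, 38.5, 71.6 and 164 in HFD-fed S100a8fl/fl, 1.77, 3.84, 3.48, 2.67 and 2.99 in chow-fed S100a8fl/flCx3cr1Cre and 41, 45.9, 37.4 and 23.7 CPM in HFD-fed S100a8fl/flCx3cr1Cre livers. No HFD-fed liver of either genotype overlapped a chow-fed one, and the change was 45.5-fold in S100a8fl/fl (log2 fold change 5.51, SE 0.47, adjusted p = 2.63e-07) and 12.5-fold in S100a8fl/flCx3cr1Cre livers (log2 fold change 3.65, SE 0.40, adjusted p = 2.34e-06).

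Cyp2a5 behaved otherwise, and its response depended on the cohort. It was at 218, 199.7 and 148 CPM in chow-fed WT, 290.2, 391, 367, 317 and 345 in HFD-fed WT, 208, 179.9 and 286 in chow-fed Bcl2AdTG and 541, 334, 499, 446 and 526 CPM in HFD-fed Bcl2AdTG livers. In this experiment HFD-fed livers were above chow-fed livers of the same genotype without overlap, and the rise passed in WT (log2 fold change 0.86, SE 0.19, adjusted p = 0.00617) and in Bcl2AdTG livers (log2 fold change 1.06, SE 0.19, adjusted p = 0.00637; 0.0516 without chow-fed Bcl2AdTG mouse 1 and 0.0574 without mouse 2). Levels in the second experiment were 1190, 726, 986 and 1159 CPM in chow-fed S100a8fl/fl, 419.5, 681, 701, 789 and 957 in HFD-fed S100a8fl/fl, 1153, 1285, 818, 713 and 879 in chow-fed S100a8fl/flCx3cr1Cre and 773, 801, 609 and 902 CPM in HFD-fed S100a8fl/flCx3cr1Cre livers. Here the HFD-fed livers lay lower or within the chow-fed range, and neither S100a8fl/fl (log2 fold change -0.52, SE 0.21, adjusted p = 0.0697; 0.0435 with DESeq2, 0.0332 without chow-fed mouse 2 and 0.0323 without HFD-fed mouse 5) nor S100a8fl/flCx3cr1Cre livers (log2 fold change -0.33, SE 0.21, adjusted p = 0.25) passed. The diet response of S100a8fl/fl differed from that of WT by -1.38 on the log2 scale (SE 0.30, adjusted p = 0.0165; 0.0643 without chow-fed WT mouse 3). Chow-fed S100a8fl/fl livers had several times the Cyp2a5 of chow-fed WT livers, a level set across separately made tables and not tested. Clock genes moved with the cohorts: of 16 measured, 4 were higher and 5 lower with HFD in WT, beside 15.4% of all genes called. Among them was Dbp (log2 fold change 5.20, and 0.04 in S100a8fl/fl livers). Of 15 in S100a8fl/fl livers 0 were higher and 3 lower, beside 27.5% of all genes called. The part of clock genes in the Cyp2a5 difference was not tested.

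Cyp2a22 (ENSMUSG00000091867, chr7.0:26931631.0-26939384.0, minus strand) had 1.61, 1.44 and 3.05 CPM in chow-fed WT, 38.8, 39.7, 25.3, 65 and 43.8 in HFD-fed WT, 3.93, 3.01 and 6.56 in chow-fed Bcl2AdTG and 25.2, 11.4, 18, 8.61 and 31.1 CPM in HFD-fed Bcl2AdTG livers. HFD-fed livers were above chow-fed livers in both genotypes, and the highest values were in WT. It rose in WT (log2 fold change 4.40, SE 0.49, adjusted p = 4.39e-05) and in Bcl2AdTG livers (log2 fold change 2.08, SE 0.43, adjusted p = 0.0139; 0.0835 without chow-fed mouse 1 and 0.103 without mouse 2). On HFD it was lower in Bcl2AdTG than in WT livers (log2 fold change -1.17, SE 0.33, adjusted p = 0.0416), with overlap and with the call lost without WT mouse 1, 4 or 5 or Bcl2AdTG mouse 2, 3 or 5 (adjusted p = 0.0534 to 0.124) and when only the compared groups were fitted (0.0571). The difference between the diet responses did not pass (log2 fold change -2.32, SE 0.59, adjusted p = 0.089; 0.00431 with DESeq2, 0.0435 with limma-voom and 0.0468 without HFD-fed Bcl2AdTG mouse 6). Cyp2a22 was at 2.75, 6.43, 3.71 and 4.69 CPM in chow-fed S100a8fl/fl, 44.4, 37.1, 63.5, 72.7 and 39.9 in HFD-fed S100a8fl/fl, 3.81, 5.32, 2.97, 2.28 and 5.38 in chow-fed S100a8fl/flCx3cr1Cre and 36.6, 36, 15.7 and 20.6 CPM in HFD-fed S100a8fl/flCx3cr1Cre livers. Again no diet group overlapped the other, with a rise in S100a8fl/fl (log2 fold change 3.56, SE 0.33, adjusted p = 4.74e-07) and S100a8fl/flCx3cr1Cre livers (log2 fold change 2.78, SE 0.30, adjusted p = 2.41e-06). Of the 50-base windows of Cyp2a22 20.5% occur in Cyp2a12. Cyp2a12, which hydroxylates bile acids in mouse liver, was called in none of the comparisons.

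**Figure D4:**
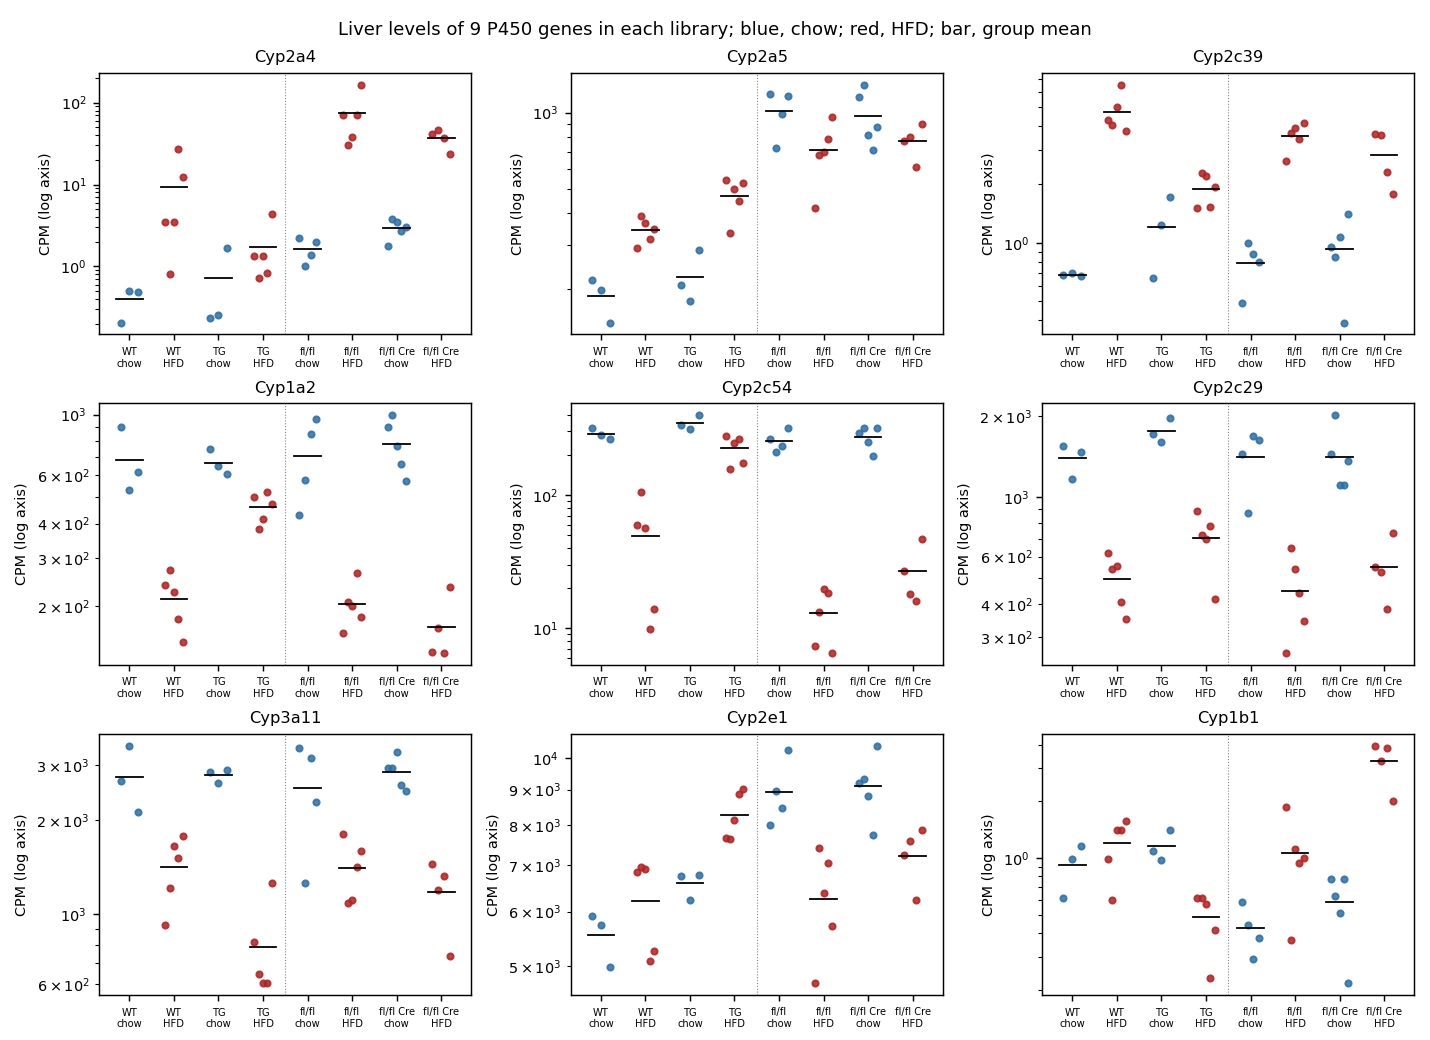
Level of 9 members (CPM, log axis) in each of 34 libraries, by group; points are livers, bars are group means, blue is chow and red is HFD, TG is Bcl2AdTG, fl/fl is S100a8fl/fl and fl/fl Cre is S100a8fl/flCx3cr1Cre, and the dotted line parts the experiments. Cyp2a4 and Cyp2c39 lie higher and Cyp2c54, Cyp2c29 and Cyp1a2 lower on HFD in WT, S100a8fl/fl and S100a8fl/flCx3cr1Cre livers.

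Cyp2c genes, a cluster on chromosome 19 whose enzymes epoxidize arachidonic acid and hydroxylate drugs, steroids and bile acids, supplied most of the falls. Cyp2c54, an arachidonic acid epoxygenase (ENSMUSG00000067225, chr19.0:40037940.0-40073827.0, minus strand), had the lowest fold change of all members in WT and S100a8fl/fl livers. Its level was 319.7, 284 and 261 CPM in chow-fed WT, 59.9, 105, 56.5, 9.89 and 14 in HFD-fed WT, 337, 314 and 396 in chow-fed Bcl2AdTG and 279, 157, 245, 264 and 175 CPM in HFD-fed Bcl2AdTG livers. HFD-fed WT livers were lowest, mice 4 and 5 by far, and no HFD-fed Bcl2AdTG liver fell into their range. Cyp2c54 dropped 5.87-fold with HFD in WT (log2 fold change -2.55, SE 0.50, adjusted p = 0.00273) and was 4.56-fold higher in Bcl2AdTG than in WT livers on HFD (log2 fold change 2.19, SE 0.46, adjusted p = 0.00928); the diet response did not pass in Bcl2AdTG livers (log2 fold change -0.64, SE 0.50, adjusted p = 0.593), nor did the difference between the responses (log2 fold change 1.91, SE 0.72, adjusted p = 0.243; 0.0349 with limma-voom). In the second experiment it was at 263, 209, 235 and 319 CPM in chow-fed S100a8fl/fl, 7.4, 13.2, 19.7, 18.3 and 6.56 in HFD-fed S100a8fl/fl, 291, 318, 248, 198 and 316 in chow-fed S100a8fl/flCx3cr1Cre and 26.9, 18, 16 and 46.8 CPM in HFD-fed S100a8fl/flCx3cr1Cre livers. Every HFD-fed liver stood far below every chow-fed one, with a fall in S100a8fl/fl (log2 fold change -4.30, SE 0.34, adjusted p = 1.26e-07) and in S100a8fl/flCx3cr1Cre livers (log2 fold change -3.35, SE 0.34, adjusted p = 1.18e-06). Of its 50-base windows 25.7% occur in another gene. For Cyp2c37, Cyp2c50 and Cyp2c67, also called between Bcl2AdTG and WT livers on HFD, the shares were 30.1%, 16.6% and 52.8%.

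Cyp2c29, the highest Cyp2c per kilobase of exon on chow and one induced through CAR (ENSMUSG00000003053, chr19.0:39269405.0-39330713.0, plus strand), had 1546, 1171 and 1469 CPM in chow-fed WT, 620.2, 540.1, 555, 406 and 353 in HFD-fed WT, 1715, 1602 and 1967 in chow-fed Bcl2AdTG and 884, 723, 701, 779.8 and 418 CPM in HFD-fed Bcl2AdTG livers. The chow-fed and HFD-fed livers were apart in both genotypes. It fell in WT (log2 fold change -1.50, SE 0.21, adjusted p = 0.000234) and in Bcl2AdTG livers (log2 fold change -1.33, SE 0.21, adjusted p = 0.0027), and the genotypes on HFD overlapped (log2 fold change 0.50, SE 0.19, adjusted p = 0.123; 0.0221 with limma-voom and 0.0274 without Bcl2AdTG mouse 6). Cyp2c29 was at 1442, 873, 1682 and 1635 CPM in chow-fed S100a8fl/fl, 263, 643, 539, 441 and 347 in HFD-fed S100a8fl/fl, 1446, 2016, 1111, 1108 and 1362 in chow-fed S100a8fl/flCx3cr1Cre and 551, 527, 382 and 734 CPM in HFD-fed S100a8fl/flCx3cr1Cre livers. Diet groups did not overlap here either, and it fell in S100a8fl/fl (log2 fold change -1.66, SE 0.25, adjusted p = 9.69e-05) and S100a8fl/flCx3cr1Cre livers (log2 fold change -1.36, SE 0.26, adjusted p = 0.000655).

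Cyp2c70, which makes the muricholic acids of mouse bile (ENSMUSG00000060613, chr19.0:40153353.0-40187333.0, minus strand), has no 50-base window in common with another gene. It was at 774, 513 and 582 CPM in chow-fed WT, 170.2, 236, 172, 147 and 149 in HFD-fed WT, 466, 618 and 512 in chow-fed Bcl2AdTG and 397, 275, 295, 337 and 234 CPM in HFD-fed Bcl2AdTG livers. HFD-fed WT livers were lowest, and the HFD-fed Bcl2AdTG range began just under their highest mouse. Cyp2c70 fell 3.56-fold in WT (log2 fold change -1.83, SE 0.19, adjusted p = 2.88e-05) and was higher in Bcl2AdTG than in WT livers on HFD (log2 fold change 0.81, SE 0.17, adjusted p = 0.00869). Its fall in Bcl2AdTG livers (log2 fold change -0.79, SE 0.19, adjusted p = 0.0329) was lost without HFD-fed mouse 2, 3 or 6 or chow-fed mouse 1, 2 or 3 (adjusted p = 0.056 to 0.2), and the difference between the responses did not pass (log2 fold change 1.04, SE 0.27, adjusted p = 0.0967; 0.016 with DESeq2, 0.00388 with limma-voom and 0.0377 without HFD-fed WT mouse 2). Levels in the second experiment were 170.2, 322, 311 and 310.2 CPM in chow-fed S100a8fl/fl, 119.5, 156, 119.7, 155 and 150.2 in HFD-fed S100a8fl/fl, 426, 392, 349.99, 385 and 311 in chow-fed S100a8fl/flCx3cr1Cre and 177, 199, 128 and 205 CPM in HFD-fed S100a8fl/flCx3cr1Cre livers. Chow-fed S100a8fl/fl mouse 1 was well under the other chow-fed livers but still above all HFD-fed S100a8fl/fl livers, and Cyp2c70 fell in S100a8fl/fl (log2 fold change -0.99, SE 0.17, adjusted p = 0.000302) and S100a8fl/flCx3cr1Cre livers (log2 fold change -1.07, SE 0.17, adjusted p = 0.000148).

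Cyp2c55, an arachidonic acid hydroxylase induced through CAR and PXR (ENSMUSG00000025002, chr19.0:39007019.0-39042693.0, plus strand), was at 12.5, 9.74 and 8.62 CPM in chow-fed WT, 2.26, 2.83, 2.49, 5.37 and 3.06 in HFD-fed WT, 10.6, 5.68 and 8.19 in chow-fed Bcl2AdTG and 2.07, 2.11, 1.36, 2.73 and 2.35 CPM in HFD-fed Bcl2AdTG livers. Chow-fed livers were above HFD-fed livers in both genotypes. The fall passed in WT (log2 fold change -1.70, SE 0.27, adjusted p = 0.000677) and in Bcl2AdTG livers (log2 fold change -1.96, SE 0.28, adjusted p = 0.00181). It had 5.3, 1.89, 5.47 and 6.05 CPM in chow-fed S100a8fl/fl, 3.56, 3.79, 2.8, 2.71 and 2.72 in HFD-fed S100a8fl/fl, 4.37, 7.47, 4.61, 7.67 and 6.3 in chow-fed S100a8fl/flCx3cr1Cre and 2.38, 3.26, 1.12 and 2.22 CPM in HFD-fed S100a8fl/flCx3cr1Cre livers. Chow-fed S100a8fl/fl mouse 2 was below all HFD-fed livers of its genotype, and the S100a8fl/fl response did not pass with it (log2 fold change -0.59, SE 0.30, adjusted p = 0.146) and passed without it (adjusted p = 0.0226), while that of S100a8fl/flCx3cr1Cre livers passed (log2 fold change -1.43, SE 0.31, adjusted p = 0.00189).

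Cyp2c40 and Cyp2c69, which share 72.1% and 54.8% of their 50-base windows with other genes, are uncertain for that reason and were scarce. Cyp2c40 (ENSMUSG00000025004, chr19.0:39767071.0-39812814.0, minus strand) was at 7.06, 2.92 and 2.23 CPM in chow-fed WT, 1.39, 2.33, 0.43, 1.83 and 1.12 in HFD-fed WT, 3.62, 2.82 and 2.68 in chow-fed Bcl2AdTG and 2.26, 0.591, 1.48, 3.29 and 3.26 CPM in HFD-fed Bcl2AdTG livers. Chow-fed WT mouse 1 was highest and the WT diet groups overlapped. The fall in WT (log2 fold change -1.55, SE 0.51, adjusted p = 0.0497) was lost without HFD-fed mouse 1, 3, 4 or 5 or chow-fed mouse 1 or 2 (adjusted p = 0.0554 to 0.295) and when only the compared groups were fitted (0.0804). Cyp2c40 had 6.96, 6.93, 2.49 and 9.39 CPM in chow-fed S100a8fl/fl, 1.32, 1.99, 1.72, 0.945 and 1.84 in HFD-fed S100a8fl/fl, 10, 13.1, 7.93, 4.67 and 12.1 in chow-fed S100a8fl/flCx3cr1Cre and 2.09, 3.34, 1.59 and 1.32 CPM in HFD-fed S100a8fl/flCx3cr1Cre livers. Here the diet groups were apart in both genotypes, with a fall in S100a8fl/fl (log2 fold change -2.04, SE 0.36, adjusted p = 0.000405) and S100a8fl/flCx3cr1Cre livers (log2 fold change -2.19, SE 0.36, adjusted p = 0.000194). Cyp2c69 (ENSMUSG00000092008, chr19.0:39842814.0-39886799.0, minus strand) showed 2.67, 0.658 and 1.16 CPM in chow-fed WT, 0.424, 0.632, 0.376, 0.384 and 0.54 in HFD-fed WT, 1.32, 1.45 and 2.31 in chow-fed Bcl2AdTG and 1.28, 0.257, 0.452, 0.879 and 1.38 CPM in HFD-fed Bcl2AdTG livers. The WT diet groups were apart by a narrow margin, and the call (log2 fold change -1.69, SE 0.49, adjusted p = 0.029) was lost without chow-fed mouse 1 (adjusted p = 0.244) or HFD-fed mouse 1, 3 or 4 (0.0566 to 0.0623). Cyp2c69 was at 1.96, 1.72, 0.684 and 2.77 CPM in chow-fed S100a8fl/fl, 0.248, 0.6, 0.56, 0.452 and 0.501 in HFD-fed S100a8fl/fl, 2.64, 4.89, 2.92, 1.11 and 5.6 in chow-fed S100a8fl/flCx3cr1Cre and 0.376, 0.238, 0.215 and 0.256 CPM in HFD-fed S100a8fl/flCx3cr1Cre livers. No HFD-fed liver overlapped a chow-fed one, and it fell in S100a8fl/fl (log2 fold change -1.91, SE 0.44, adjusted p = 0.00342) and S100a8fl/flCx3cr1Cre livers (log2 fold change -3.64, SE 0.48, adjusted p = 2.20e-05).

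Cyp2c38 and Cyp2c39 were the 2 Cyp2c genes that rose with HFD in WT and S100a8fl/fl livers, and Cyp2c68 was called in neither. Cyp2c39, a retinoic acid hydroxylase (ENSMUSG00000025003, chr19.0:39510862.0-39568529.0, plus strand), was at 0.685, 0.699 and 0.678 CPM in chow-fed WT, 4.29, 4.03, 4.98, 6.48 and 3.74 in HFD-fed WT, 0.662, 1.23 and 1.73 in chow-fed Bcl2AdTG and 1.52, 2.29, 2.21, 1.53 and 1.93 CPM in HFD-fed Bcl2AdTG livers. All 3 chow-fed WT livers were close together and far below the HFD-fed ones, while the Bcl2AdTG diet groups overlapped. It rose 6.8-fold in WT (log2 fold change 2.77, SE 0.31, adjusted p = 4.73e-05), was lower in Bcl2AdTG than in WT livers on HFD (log2 fold change -1.30, SE 0.23, adjusted p = 0.00341), and had a smaller diet response in Bcl2AdTG than in WT livers (log2 fold change -2.09, SE 0.41, adjusted p = 0.0315). That difference was lost on leaving out, on chow, any 1 of the WT mice or Bcl2AdTG mouse 2 or 3 or, on HFD, WT mouse 3 or 4 or Bcl2AdTG mouse 1 or 5 (adjusted p = 0.0502 to 0.13). Cyp2c39 had 0.49, 0.998, 0.88 and 0.798 CPM in chow-fed S100a8fl/fl, 2.65, 3.69, 3.92, 3.41 and 4.14 in HFD-fed S100a8fl/fl, 0.952, 0.844, 1.07, 0.389 and 1.41 in chow-fed S100a8fl/flCx3cr1Cre and 3.63, 3.58, 2.32 and 1.79 CPM in HFD-fed S100a8fl/flCx3cr1Cre livers. Diet groups were apart in both genotypes, with a rise in S100a8fl/fl (log2 fold change 2.17, SE 0.32, adjusted p = 6.39e-05) and S100a8fl/flCx3cr1Cre livers (log2 fold change 1.59, SE 0.30, adjusted p = 0.000553).

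Cyp2c38, an arachidonic acid epoxygenase (ENSMUSG00000032808, chr19.0:39389556.0-39463075.0, minus strand), was at 20.5, 16.3 and 22.8 CPM in chow-fed WT, 99.7, 77.5, 107, 123 and 97.1 in HFD-fed WT, 34.5, 41.7 and 61.5 in chow-fed Bcl2AdTG and 70.4, 58.2, 61.3, 51.6 and 98.8 CPM in HFD-fed Bcl2AdTG livers. Chow-fed WT livers were lowest, and chow-fed Bcl2AdTG livers lay above them without overlap, though the genotype difference on chow did not pass (log2 fold change 1.21, SE 0.25, adjusted p = 0.0776; 0.00121 with DESeq2 and 0.00496 with limma-voom). Cyp2c38 rose in WT (log2 fold change 2.34, SE 0.24, adjusted p = 2.88e-05) and not by this test in Bcl2AdTG livers (log2 fold change 0.57, SE 0.22, adjusted p = 0.203; 0.0344 with limma-voom). The responses differed (log2 fold change -1.78, SE 0.31, adjusted p = 0.0268), a call lost without chow-fed WT mouse 1 or 2 or chow-fed Bcl2AdTG mouse 2 or 3 (adjusted p = 0.053 to 0.0912). Its levels in the second experiment were 42.5, 30.3, 24.2 and 30.2 CPM in chow-fed S100a8fl/fl, 78.3, 93.5, 94.2, 80.3 and 97.9 in HFD-fed S100a8fl/fl, 25.9, 28.7, 31.8, 26.4 and 52.1 in chow-fed S100a8fl/flCx3cr1Cre and 104, 84.9, 84.8 and 62.8 CPM in HFD-fed S100a8fl/flCx3cr1Cre livers. The HFD-fed livers were higher without overlap in both genotypes, and it rose in S100a8fl/fl (log2 fold change 1.48, SE 0.20, adjusted p = 2.90e-05) and S100a8fl/flCx3cr1Cre livers (log2 fold change 1.35, SE 0.19, adjusted p = 4.02e-05).

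Promoter sequence was available for 33 members and was searched for 5 motifs on both strands. The letters CAAAGTCCA, an HNF4A-type site, were found in 6 of the 33 windows (18.2%), against 0.475% of all 32851 RefSeq promoters of the same length. These were Cyp2c40, Cyp2c67, Cyp2c68, Cyp2c69, Cyp2c70 and Cyp3a11, of which 5 fell with HFD in WT livers, beside 10 of all 13 Cyp2c genes and 19 of all 39 members; of these 5, the calls of Cyp2c40, Cyp2c67, Cyp2c69 and Cyp3a11 were lost on leaving out single livers (for Cyp2c67, adjusted p = 0.0617 to 0.107 without chow-fed mouse 1 or 2 or HFD-fed mouse 2, 4 or 5; the others are given with each gene). A similar sequence is shared within the cluster, the windows of Cyp2c68 and Cyp2c69 being 91.1% identical and those of Cyp2c40 and Cyp2c69 80.9%, so the matches are not independent. Shown are 3 of them, each on the minus strand of GRCm38.p6, Cyp2c40 at chr19:39812765-39813064, Cyp2c70 at chr19:40187237-40187536 and Cyp3a11 at chr5:145879805-145880104, with the match in capitals, starting 45, 64 and 109 bases before the start:
Cyp2c40: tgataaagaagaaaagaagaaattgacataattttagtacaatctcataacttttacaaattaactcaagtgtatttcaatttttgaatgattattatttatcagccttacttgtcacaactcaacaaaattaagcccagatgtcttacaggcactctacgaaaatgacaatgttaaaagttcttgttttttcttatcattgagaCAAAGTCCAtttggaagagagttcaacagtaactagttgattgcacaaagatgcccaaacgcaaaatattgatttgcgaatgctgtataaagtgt
Cyp2c70: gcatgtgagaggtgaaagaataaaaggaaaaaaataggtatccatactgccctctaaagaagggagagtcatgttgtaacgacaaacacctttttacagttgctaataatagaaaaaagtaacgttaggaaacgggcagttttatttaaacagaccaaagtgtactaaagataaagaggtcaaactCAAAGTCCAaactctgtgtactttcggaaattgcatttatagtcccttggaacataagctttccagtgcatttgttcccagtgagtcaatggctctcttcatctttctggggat
Cyp3a11: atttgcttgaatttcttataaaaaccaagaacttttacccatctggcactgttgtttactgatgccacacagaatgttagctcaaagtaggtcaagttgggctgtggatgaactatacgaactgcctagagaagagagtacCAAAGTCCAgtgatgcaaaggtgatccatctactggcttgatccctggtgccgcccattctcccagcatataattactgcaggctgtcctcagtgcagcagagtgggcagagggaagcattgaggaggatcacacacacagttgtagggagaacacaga
GCGTG, the core bound by AHR, was in 5 windows (15.2%; Cyp1a1, Cyp1b1, Cyp2c68, Cyp2j9 and Cyp2r1) against 32.4% of all promoters. TTCNNNGAA, a STAT5-type site, was in 0 against 8.3%, the clock E-box CACGTG in 1 (Cyp2j6) against 7.15%, and the D-box TTANGTAA in 1 (Cyp2c38) against 2.32%. A match in these 300-base windows describes the letters only.

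Cyp2d genes lie together on chromosome 15. Cyp2d9, a testosterone hydroxylase that male mouse liver expresses more than female liver (ENSMUSG00000068086, chr15.0:82433437.0-82456845.0, plus strand), was at 1485, 1808 and 1216 CPM in chow-fed WT, 1119.6, 704, 762, 417 and 608 in HFD-fed WT, 1249, 1228 and 1230.2 in chow-fed Bcl2AdTG and 821, 1352, 941, 1235 and 1332 CPM in HFD-fed Bcl2AdTG livers. HFD-fed WT livers were below the chow-fed ones, while Bcl2AdTG diet groups overlapped. It fell in WT (log2 fold change -1.06, SE 0.24, adjusted p = 0.00724) and the genotype difference on HFD did not pass (log2 fold change 0.65, SE 0.21, adjusted p = 0.0781; 0.0301 with DESeq2 and 0.0149 without WT mouse 1). Cyp2d9 had 2378, 1690.2, 2336 and 2118 CPM in chow-fed S100a8fl/fl, 795, 729.99, 1264, 1007 and 793 in HFD-fed S100a8fl/fl, 2253, 1944, 2302, 2156 and 1901 in chow-fed S100a8fl/flCx3cr1Cre and 1181, 807, 1026 and 1356 CPM in HFD-fed S100a8fl/flCx3cr1Cre livers. Diet groups did not overlap, with a fall in S100a8fl/fl (log2 fold change -1.22, SE 0.16, adjusted p = 2.90e-05) and S100a8fl/flCx3cr1Cre livers (log2 fold change -0.95, SE 0.17, adjusted p = 0.000322). Of the 50-base windows of Cyp2d9 29.0% occur in another gene, and of those of Cyp2d10 40.5%. Cyp2d10 fell in WT (-0.48), S100a8fl/fl (-0.55) and S100a8fl/flCx3cr1Cre livers (-0.43, log2 fold changes); the WT call was lost without chow-fed mouse 1 or 2 or HFD-fed mouse 3 or 4 (adjusted p = 0.0688 to 0.114) and when only the compared groups were fitted (0.0764). Cyp2d11, Cyp2d26 and Cyp2d40 were called in none of the comparisons.

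Cyp2e1, which oxidizes ethanol and acetaminophen (ENSMUSG00000025479, chr7.0:140763739.0-140774987.0, plus strand), was the most abundant member, at 5911, 5738 and 4992 CPM in chow-fed WT, 6851, 6963, 6904, 5092 and 5272 in HFD-fed WT, 6763, 6245 and 6781 in chow-fed Bcl2AdTG and 7667, 7629.6, 8136, 8868 and 9023 CPM in HFD-fed Bcl2AdTG livers. The WT diet groups overlapped, and every HFD-fed Bcl2AdTG liver was above every HFD-fed WT liver. It was higher in Bcl2AdTG than in WT livers on HFD (log2 fold change 0.41, SE 0.12, adjusted p = 0.048), a call lost on leaving out HFD-fed WT mouse 1, 4 or 5 or any 1 of the 5 Bcl2AdTG mice (adjusted p = 0.0541 to 0.138) and when only the compared groups were fitted (0.106). Over 18 alternatives Cyp2e1 kept this call in 8, with adjusted p up to 0.256. Diet had no called effect on it in WT (log2 fold change 0.16, SE 0.14, adjusted p = 0.453). Cyp2e1 was at 7989, 8951, 8462 and 10254 CPM in chow-fed S100a8fl/fl, 4733, 7421, 6379, 7045 and 5717 in HFD-fed S100a8fl/fl, 9204, 9329, 8817, 7731 and 10418 in chow-fed S100a8fl/flCx3cr1Cre and 7233, 7590.4, 6231 and 7861 CPM in HFD-fed S100a8fl/flCx3cr1Cre livers. HFD-fed S100a8fl/fl livers were below the chow-fed ones without overlap (log2 fold change -0.51, SE 0.13, adjusted p = 0.00745), and the S100a8fl/flCx3cr1Cre groups overlapped (log2 fold change -0.33, SE 0.13, adjusted p = 0.0659; 0.0279 with DESeq2, 0.0342 with limma-voom and 0.0429 without chow-fed mouse 4). The difference between the diet responses of S100a8fl/fl and WT livers did not pass (log2 fold change -0.68, SE 0.19, adjusted p = 0.0684; 0.012 with DESeq2, 0.0328 with limma-voom, 0.0459 and 0.0437 without HFD-fed WT mouse 4 and 5, and 0.0477 without HFD-fed S100a8fl/fl mouse 2).

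Cyp2f2, which activates naphthalene in mice (ENSMUSG00000052974, chr7.0:27119909.0-27133660.0, plus strand) and has no 50-base window in common with another gene, was at 1133, 805 and 989 CPM in chow-fed WT, 517, 378, 478, 621 and 498 in HFD-fed WT, 1041, 849 and 891 in chow-fed Bcl2AdTG and 632, 529.8, 506, 747 and 481 CPM in HFD-fed Bcl2AdTG livers. Chow-fed livers were above HFD-fed livers in both genotypes. It fell in WT (log2 fold change -0.97, SE 0.17, adjusted p = 0.00133) and in Bcl2AdTG livers (log2 fold change -0.68, SE 0.17, adjusted p = 0.0437), the second lost without any 1 of the chow-fed mice or HFD-fed mouse 1, 2, 3 or 6 (adjusted p = 0.0611 to 0.211). Cyp2f2 had 989, 896, 1172 and 999.8 CPM in chow-fed S100a8fl/fl, 618, 428, 631, 682 and 583 in HFD-fed S100a8fl/fl, 1096, 930.4, 1194, 1082 and 945 in chow-fed S100a8fl/flCx3cr1Cre and 639, 574, 467 and 545 CPM in HFD-fed S100a8fl/flCx3cr1Cre livers. The groups were again apart, and it fell in S100a8fl/fl (log2 fold change -0.79, SE 0.13, adjusted p = 0.000197) and S100a8fl/flCx3cr1Cre livers (log2 fold change -0.92, SE 0.13, adjusted p = 4.53e-05).

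Cyp2j5, an arachidonic acid epoxygenase of liver and kidney (ENSMUSG00000052520, chr4.0:96628773.0-96664154.0, minus strand), stood at 659, 627 and 615 CPM in chow-fed WT, 662, 614, 787, 560.04 and 493 in HFD-fed WT, 668, 663 and 686 in chow-fed Bcl2AdTG and 652, 675, 674, 758 and 637 CPM in HFD-fed Bcl2AdTG livers. Its diet groups overlapped in both genotypes. In S100a8 mice it was at 439, 532, 468 and 563 CPM in chow-fed S100a8fl/fl, 381, 561, 502, 500.1 and 438 in HFD-fed S100a8fl/fl, 482, 499.6, 455, 439 and 497 in chow-fed S100a8fl/flCx3cr1Cre and 492, 486, 417 and 486 CPM in HFD-fed S100a8fl/flCx3cr1Cre livers. The diet groups overlapped again, and no comparison called it, the diet response being -0.02 (SE 0.13) in WT and -0.07 (SE 0.11) in S100a8fl/fl livers on the log2 scale.

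Cyp2r1, the vitamin D hydroxylase of liver (ENSMUSG00000030670, chr7.0:114549682.0-114562972.0, minus strand), was at 19.9, 20.2 and 19.8 CPM in chow-fed WT, 13.1, 11.6, 13.6, 14.4 and 16.9 in HFD-fed WT, 19.1, 20.3 and 17.2 in chow-fed Bcl2AdTG and 12.4, 13.3, 15.6, 16.5 and 13.3 CPM in HFD-fed Bcl2AdTG livers. The chow-fed WT livers were nearly equal and above all HFD-fed ones (log2 fold change -0.52, SE 0.13, adjusted p = 0.0118; 0.0501 when only the compared groups were fitted). Cyp2r1 had 13.3, 16, 14.2 and 14.5 CPM in chow-fed S100a8fl/fl, 11.3, 12.7, 11.4, 10.5 and 11.9 in HFD-fed S100a8fl/fl, 14.6, 16.2, 12, 12.9 and 13.2 in chow-fed S100a8fl/flCx3cr1Cre and 13.5, 11.2, 10.5 and 10.7 CPM in HFD-fed S100a8fl/flCx3cr1Cre livers. S100a8fl/fl diet groups were just apart, with a fall (log2 fold change -0.33, SE 0.11, adjusted p = 0.0304) lost without chow-fed mouse 2 or 5 or HFD-fed mouse 1, 3 or 4 (adjusted p = 0.0524 to 0.0895), and the S100a8fl/flCx3cr1Cre groups overlapped (log2 fold change -0.26, SE 0.11, adjusted p = 0.0771; 0.0329 without HFD-fed mouse 1).

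Cyp2u1, which hydroxylates long-chain fatty acids (ENSMUSG00000027983, chr3.0:131288441.0-131303227.0, minus strand), was at 67.9, 60.8 and 65.9 CPM in chow-fed WT, 65.9, 31.7, 35.9, 38.8 and 22.9 in HFD-fed WT, 43, 46.5 and 34.4 in chow-fed Bcl2AdTG and 65.7, 79.7, 54.8, 71 and 101 CPM in HFD-fed Bcl2AdTG livers. HFD-fed WT mouse 1, the liver with the high Bcl2, stood apart from the other HFD-fed WT livers. It lay with the chow-fed WT livers and also inside the HFD-fed Bcl2AdTG range. HFD-fed Bcl2AdTG livers were above chow-fed Bcl2AdTG livers. The genotype difference on HFD passed (log2 fold change 0.93, SE 0.22, adjusted p = 0.0186; 0.0741 with limma-voom and 0.0509 without WT mouse 4). The WT diet response did not pass (log2 fold change -0.73, SE 0.25, adjusted p = 0.0569; 0.027 with DESeq2, 0.0494 with RLE scaling and 0.0036 without HFD-fed mouse 1), nor did the difference between the responses (log2 fold change 1.58, SE 0.36, adjusted p = 0.0596; 0.00299 with DESeq2, 0.0229 with limma-voom and 0.0116 without that mouse). Cyp2u1 had 57.1, 60.2, 56.8 and 50.1 CPM in chow-fed S100a8fl/fl, 44, 57.8, 58.8, 46.5 and 38 in HFD-fed S100a8fl/fl, 53, 45.6, 49.6, 68.9 and 42.6 in chow-fed S100a8fl/flCx3cr1Cre and 46.6, 41, 35.3 and 57.5 CPM in HFD-fed S100a8fl/flCx3cr1Cre livers. These groups overlapped, and no comparison of the second experiment called it.

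Cyp3a11, the main Cyp3a enzyme of mouse liver and a PXR target (ENSMUSG00000056035, chr5.0:145854426.0-145879964.0, minus strand), has no 50-base window in common with another gene. It was at 2679, 3472 and 2122 CPM in chow-fed WT, 929, 1217, 1650.05, 1514 and 1782 in HFD-fed WT, 2866, 2635 and 2906 in chow-fed Bcl2AdTG and 815, 647, 604, 604 and 1264 CPM in HFD-fed Bcl2AdTG livers. Chow-fed livers were above HFD-fed livers in both genotypes, and most HFD-fed Bcl2AdTG livers lay below the HFD-fed WT ones. It fell 1.94-fold in WT (log2 fold change -0.96, SE 0.25, adjusted p = 0.0145; 0.078 without chow-fed mouse 2) and 3.56-fold in Bcl2AdTG livers (log2 fold change -1.83, SE 0.25, adjusted p = 0.00121). On HFD it was lower in Bcl2AdTG than in WT livers (log2 fold change -0.85, SE 0.22, adjusted p = 0.0278), a call lost without WT mouse 3, 4 or 5 or Bcl2AdTG mouse 2, 3 or 5 (adjusted p = 0.0541 to 0.0809) and when only the compared groups were fitted (0.0537). Levels were 3405, 1259.8, 3160.1 and 2298 CPM in chow-fed S100a8fl/fl, 1812, 1084, 1112, 1421 and 1591 in HFD-fed S100a8fl/fl, 2947, 2937, 3307, 2603 and 2479 in chow-fed S100a8fl/flCx3cr1Cre and 1450.2, 1199, 1329.7 and 738 CPM in HFD-fed S100a8fl/flCx3cr1Cre livers. Chow-fed S100a8fl/fl mouse 2 fell inside the HFD-fed range, and Cyp3a11 fell in S100a8fl/fl (log2 fold change -0.85, SE 0.23, adjusted p = 0.0116) and, without overlap, in S100a8fl/flCx3cr1Cre livers (log2 fold change -1.28, SE 0.24, adjusted p = 0.000675). Cyp3a59, of which 28.0% of 50-base windows occur in another gene, was lower in Bcl2AdTG than in WT livers on HFD (log2 fold change -0.70).

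Genes that work with the family were counted from lists. The lists here and in the next 2 paragraphs stand beside the share of all genes called. With HFD that share was 15.4% in WT, 27.5% in S100a8fl/fl, 28.9% in S100a8fl/flCx3cr1Cre and 2.58% in Bcl2AdTG livers. Between genotypes on HFD it was 6.71% in the first and 0.883% in the second experiment. Of 18 transcriptional regulators, 0 rose and 2 fell with HFD in WT livers, Bcl6 (log2 fold change -1.77) and Nr0b2 (-1.21), a repressor of nuclear receptors. In S100a8fl/fl livers 2 rose and 3 fell, among the latter Hnf4a (-0.55), a driver of hepatocyte genes, and Nr1h4 (-0.35), the bile acid receptor. In Bcl2AdTG livers HFD raised Ahr (0.89) and lowered Onecut1 (-2.88) and Foxa2 (-0.99). By edgeR 0 of the 18 were called between genotypes on HFD in either experiment, with 3 in the first and 2 in the second at an unadjusted p under 0.05. Of 17 genes for electron supply and heme, 2 rose and 0 fell in WT livers, Hmox1 (1.13), which degrades heme, and Alas1 (0.86), which starts its synthesis, and 2 rose and 2 fell in S100a8fl/fl livers, with Por at -0.81. The part of these genes in the P450 changes was not tested.

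Targets of AHR, CAR and PXR outside the P450s were counted as well. Alas1 and Por stand in this list and also in that for electron supply and heme. Of 14, 5 rose and 1 fell with HFD in WT, and 4 rose and 2 fell in S100a8fl/fl livers. The quinone reductase Nqo1 rose in WT (log2 fold change 1.13) and S100a8fl/fl livers (1.52), the glutathione transferase Gstm3 rose by 1.74 and 2.34, and the carboxylesterase Ces2a fell by 1.95 and 1.86 on the log2 scale. On HFD, Bcl2AdTG livers had lower Gstm3 (-2.55), Nqo1 (-0.77) and Abcc3 (-0.62) and higher Ces2a (0.61) than WT livers. How these targets relate to the P450 changes was not tested.

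Sex-biased liver genes outside the members, P450s of other families among them, changed in the same livers. Of 10 male-biased genes 10 fell with HFD in WT and 9 in S100a8fl/fl livers, with medians of -2.59 and -3.47 on the log2 scale, Hsd3b5 at -6.55 and -6.36 and Cyp7b1, an oxysterol hydroxylase, at -2.58 and -2.60. Their summed level was 9945 to 15386 CPM in chow-fed WT, 5513 to 7107 in chow-fed Bcl2AdTG, 749 to 2158 in HFD-fed WT and 1421 to 4960.0 CPM in HFD-fed Bcl2AdTG livers. On chow this sum was thus lower in Bcl2AdTG than in WT livers without overlap, though 0 of the 10 genes were called there by edgeR (3 at an unadjusted p under 0.05). Serpina1e (mean 6812 CPM in chow-fed WT and 2936 CPM in chow-fed Bcl2AdTG livers) and Mup20 (2694 and 1625 CPM) weighed most in it. Hsd3b5 differed little (272 and 260 CPM), and Slco1a1 alone had a higher mean in Bcl2AdTG livers (396 and 426 CPM). Between genotypes on HFD 3 of the 10 were higher in Bcl2AdTG livers, Hsd3b5 by 5.06 on the log2 scale. All 3 measured female-biased genes rose with HFD in all 4 genotypes. They were Cyp2b9 (log2 fold change 8.64 in WT and 6.88 in S100a8fl/fl livers) and Cyp2b13 (9.46 and 7.99), Cyp2 genes of the subfamily left out here, and the hydroxyacid oxidase Hao2 (5.71 and 5.16). For the zones of the lobule, of 9 periportal genes 1 rose and 6 fell in WT and 0 rose and 2 fell in S100a8fl/fl livers, and of 9 pericentral genes, the zone where many P450s are made, 4 rose and 0 fell in WT and 1 rose and 1 fell in S100a8fl/fl livers. The part of these lists in the P450 changes was not tested.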

How the data were processed

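Poly(A) RNA of 34 mouse livers was sequenced on an Illumina HiSeq. According to the study's methods and the submitters' processing notes, the authors passed reads through FastQC and Trimmomatic, mapped them with HISAT2 (genome GRCm38), handled the alignments with SAMtools and obtained counts per gene from featureCounts; the versions, the strand setting and the handling of reads that fit several genes are not given in the sources used here. The deposited values are whole-number counts per gene, not normalized, in 1 table per experiment; the lowest mean count of a gene was 7.125 in the first table and 8.67 in the second. Columns holding the authors' own comparisons (log2 fold change, its error, statistic, p and adjusted p, mean, and an enrichment rank) were not used. Every count column was matched to a sample by name, and no 2 libraries of the same group agreed within sampling noise. Libraries of different groups were not compared in this way.

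Each table was fitted separately with edgeR 4.0.16 (quasi-likelihood, TMM, all 4 groups of the experiment, no covariates; R 4.3.3), with Benjamini-Hochberg adjustment over all genes, 14436 and 13817, and a threshold of 0.05. The authors used DESeq2; here edgeR was the main test and DESeq2 1.42.0, limma-voom (limma 3.58.1), RLE scaling, other filters, fits of only the compared groups, a replicate block and leaving out each liver were alternatives. Diet responses of the 2 control cohorts were compared in a model over both tables, on 13377 genes. The code was tested on simulated data. Summaries used pandas 2.3.3 and NumPy 2.4.6 in Python 3.11.15, and figures matplotlib 3.10.9.

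Coordinates and exon lengths come from GENCODE M21 (14425 and 13809 gene IDs matched), and promoters from RefSeq on GRCm38.p6, where 33 members matched by symbol and 6 did not. Members and gene lists were chosen with earlier results of these data known. Every member could be named. Values in every liver are given for the 3 members that rose and the 3 that fell most in the diet comparisons of WT and S100a8fl/fl and the genotype comparisons on HFD, the most abundant member of each subfamily, and any member past a test of an interaction, of genotype on chow or of the cohort difference; genes outside the family are named from lists, at most 4 per list and comparison by p, besides marker, clock and targeted genes.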

Additional observations from a re-analysis of the deposited data

Results flagged for a closer look

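In 3 of 120 groups of member values, 1 liver lay far from the others by Dixon's criterion, which chance exceeds in about 1 in 20 groups. Cyp2c55 was at 1.89 CPM in chow-fed S100a8fl/fl mouse 2, against 5.3 to 6.05 CPM in the other chow-fed S100a8fl/fl livers. Cyp2c70 was at 170.2 CPM in chow-fed S100a8fl/fl mouse 1, against 310 to 322 CPM in the others. Cyp2j5 was at 417 CPM in HFD-fed S100a8fl/flCx3cr1Cre mouse 4, against 486 to 492 CPM in the others.

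The diet response differed between genotypes or cohorts, by a test of the difference itself, for 3 members. That of Cyp2c38 was lower in Bcl2AdTG than in WT livers by a log2 difference of -1.78, and that of Cyp2c39 by -2.09. The response of Cyp2a5 in S100a8fl/fl livers differed from that in WT livers by -1.38.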

How the results depend on the processing

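Across 7841 alternative values for the tests of single members, 7558 kept their direction and side of the threshold, 198 no longer passed, 85 newly passed and 0 reversed. The counts of members called moved by more than 1.5 times as follows. In the diet response of Bcl2AdTG livers, limma-voom called 15 in place of 7, and leaving out single livers gave 3 to 7. For genotype on HFD in the first experiment, 17 became 10 with a replicate block, 10 when only the compared groups were fitted, and 7 to 17 on leaving out single livers. For genotype on chow, 0 became 1 with DESeq2, limma-voom and the replicate block. For the diet response by genotype in the first experiment, 2 became 6 with DESeq2, 9 with limma-voom, 1 with a stricter count filter, 1 with the block and 0 to 4 on leaving out single livers. For S100a8 genotype on HFD, 1 became 2 with limma-voom, 0 with the stricter filter and 0 to 1 on leaving out single livers. For the difference between cohorts, 1 became 2 with DESeq2, 3 with limma-voom and 0 to 2 on leaving out single livers. Diet counts in WT (16 to 23), S100a8fl/fl (20 to 27) and S100a8fl/flCx3cr1Cre livers (22 to 27) stayed within that margin. The cause of these shifts was not tested. Mouse numbers did not pair the livers: deviations of same-numbered livers correlated with a median of 0.049 over 19 pairs (-0.48 to 0.287) in the first and -0.055 over 24 pairs (-0.357 to 0.193) in the second experiment. Those of differently numbered livers had medians of -0.007 over 75 pairs (-0.439 to 0.566) and 0.021 over 97 pairs (-0.388 to 0.399). Groupings of livers other than by mouse number were not tested. The block gave 20 diet calls in WT, 6 in Bcl2AdTG, 23 in S100a8fl/fl and 24 in S100a8fl/flCx3cr1Cre livers. Fits of only the compared groups for the interactions, and the block for the cohort comparison, gave no value. Low counts in at least some groups limit Cyp1a1, Cyp1b1, Cyp2a4, Cyp2c39, Cyp2c40, Cyp2c69, Cyp2d11 and Cyp2d12, and intervals reflect the spread between livers only.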
